A study of Homo sapiens with 9 samples.

Results

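The aminoacyl-tRNA synthetases are the enzymes that join each amino acid to its tRNA. The 36 genes described here are a list of cytosolic and mitochondrial synthetases, and all 36 were found in the count table among 14943 genes. By compartment, 18 encode cytosolic enzymes, 16 encode mitochondrial enzymes, and 2 (GARS1 for glycine and KARS1 for lysine) encode enzymes of both compartments. They were measured in SH-Sy5y cells, a neuroblastoma cell line, which were transfected for 48 h with a mimic of the microRNA miR-1229-3p in a search for its direct targets.

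Each of the 3 groups had 3 libraries of polyadenylated RNA. The Ctrl. group received 40 pmol of a negative control oligonucleotide. The 10 nM group received 20 pmol of the mimic with 20 pmol of the control oligonucleotide, and the 20 nM group received 40 pmol of the mimic and none of the control oligonucleotide. The presence of mimic and the absence of control oligonucleotide therefore cannot be told apart at 20 nM. The cells come from 1 line, RNA was pooled from a pair of wells where possible, and the sources used here do not say that the 3 libraries of a group were separate cultures, so the p-values measure the spread between these libraries.

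A synthetase activates its amino acid with ATP and passes it to the matching tRNA, and many members proofread the product. Ribosomes in the cytosol and in mitochondria use separate tRNAs, so the cell keeps a nuclear gene for a cytosolic enzyme and, for most amino acids, another nuclear gene for a mitochondrial one. Several cytosolic enzymes sit together in the multisynthetase complex. Many cytosolic genes, and few mitochondrial ones, are known targets of ATF4, the transcription factor that is made when amino acids are short or the endoplasmic reticulum is stressed.

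The mature miR-1229-3p is shown because its seed decides which sites were searched for in the synthetase transcripts. It lies at chr5:179798278-179798300 on the minus strand of GRCh38.p14 in RefSeq, and the capitals mark the seed, bases 2 to 8.
miR-1229-3p: cUCUCACCacugcccucccacag

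Matches to this seed were searched for in the longest annotated 3′ UTR of each gene (GENCODE release 44): GGTGAGAA as an 8-mer, GTGAGAA or GGTGAGA as a 7-mer, and GTGAGA as a 6-mer. Of 36 synthetase genes, 4 held a 7-mer (11.1%) and none held the 8-mer, against a 7-mer or 8-mer in 22.6% of 13778 genes of the table with a 3′ UTR. The 4 genes were FARSB, LARS2, NARS2 and PARS2, so that 3 of 16 mitochondrial and 1 of 18 cytosolic genes had one. A 6-mer alone was found in AARS2, EARS2, HARS1, HARS2, LARS1 and YARS1. One site of each gene with a 7-mer follows, and below them the 6-mers of HARS1 and HARS2, 2 neighbouring genes described further on, each read on the strand of the transcript with the match in capitals.
FARSB: cctccagaactGTGAGAAataaaattctt
LARS2: gtacacagtcaGGTGAGAtggctcccaaa
NARS2: ctgtgtaatttGTGAGAAccatctagtag
PARS2: agctcatggagGGTGAGAtcatgttaggg
HARS1: tcagctgtggtGTGAGAgggtgaatcca
HARS2: gtcaagaggtaGTGAGAttgttgctgtg

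These windows lie at chr2:222566911-222566939 (minus strand, FARSB), chr3:45549989-45550017 (plus strand, LARS2), chr11:78436292-78436320 (minus strand, NARS2), chr1:54757602-54757630 (minus strand, PARS2), chr5:140673365-140673392 (minus strand, HARS1) and chr5:140698824-140698851 (plus strand, HARS2) of GRCh38. LARS2 held 2 further 7-mers and 2 6-mers. A match is a description of letters in an annotated UTR, and its use in these cells was not measured. When only the representative transcript of each gene was searched, 3 synthetase genes held a 7-mer (8.33%) against 20.9% of genes. LARS2 lost its 7-mers there, and HARS1 and LARS1 lost their 6-mers.

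Library totals ran from 17424000 to 28192800 estimated counts. The 8 neuroblastoma markers of a short list were all in the table, among them DBH, PHOX2A and HAND2, and TH was below 1 CPM (a gene's counts relative to the TMM-scaled total of its library) in all 9 libraries. Across concentrations ISL1 was lower (-0.29 ± 0.05 per 20 nM, adjusted p = 0.00162, edgeR), as was TH. Of 7 markers of other cell types, PTPRC, ALB, GFAP and PECAM1 were not in the table, EPCAM reached at most 1.2 CPM and CD68 at most 4.13 CPM, and COL3A1, a fibrillar collagen of mesenchymal cells, ran from 23.3 to 48.4 CPM with its lowest value in replicate 3 of each group. Replicate 3 at 20 nM stood apart from the other libraries, at 47.4 on a first principal component (30.4% of the variance) on which the others lay between -17.1 and 7.72. In that library 21 of 36 synthetase genes (58.3%) had their highest CPM, against 30.7% of all genes. Log2 fold changes below come from a fit with 1 surrogate variable, an estimated term for variation between libraries that the groups do not account for, whereas CPM values are not corrected for it.

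Cytosolic synthetase transcripts were the more abundant ones. Per kb of the representative transcript, the median of the 18 cytosolic genes was 48.1 CPM in the Ctrl. libraries (range 4.5 to 106), against 11.8 CPM for the 16 mitochondrial genes (range 2.68 to 54.2). The highest levels per kb belonged to FARSA, the catalytic subunit of the phenylalanine enzyme, at 106 ± 1.6 CPM (SD, n = 3), to QARS1 for glutamine at 96.6 ± 5.04, and to KARS1 at 91.1 ± 1.53. The top 18 genes held 15 cytosolic genes, both dual genes, and 1 mitochondrial gene, IARS2 for isoleucine, at 54.2 ± 1.4 CPM per kb. At the other end stood PARS2 for proline at 3.06 ± 0.235 and WARS2 for tryptophan at 2.68 ± 0.124 CPM per kb, both mitochondrial.

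FARSB, which encodes the other subunit of the same phenylalanine enzyme as FARSA, was at 6.14 ± 0.0632 CPM per kb. Its representative transcript, which is also its longest, has 6761 bases, against 1811 bases for that of FARSA. Not divided by length, the Ctrl. means were 41.5 CPM for FARSB and 192 CPM for FARSA. Which transcripts the cells used was not measured. TARS3, the second cytosolic threonine enzyme, was at 4.5 ± 0.418 against 45.9 ± 2.81 CPM per kb for TARS1. In the order of all 36 genes, the control libraries of neighbours overlapped in 18 of 35 steps, so that many neighbouring ranks did not differ beyond their spread. With the longest transcript in place of the representative one, the cytosolic median was 45.8 and the mitochondrial one 11.8 CPM per kb, and QARS1 took the first place. Mitochondrial genes made up 19.1 to 20.3% of the summed synthetase CPM in every library, mimic or not.

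**Figure D1:**
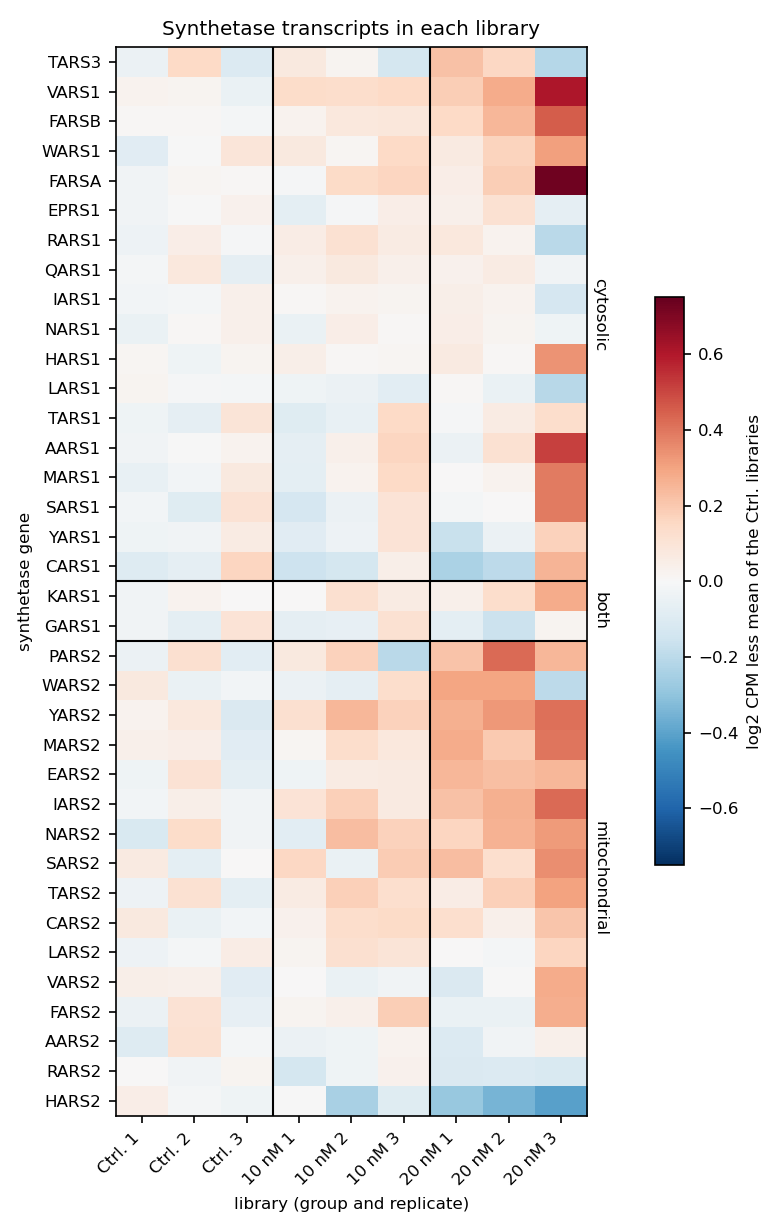
Log2 CPM of each of the 36 synthetase genes (rows, by compartment and then by fold change at 20 nM) in each of the 9 libraries (columns), less the mean of the 3 Ctrl. libraries. Red cells in the 20 nM columns are frequent among both cytosolic and mitochondrial genes, HARS2 is blue in all 3, and replicate 3 at 20 nM holds the strongest colours, as for FARSA and VARS1.

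At 10 nM no synthetase transcript passed the threshold, an adjusted p of 0.05. This was 0 of 36 in edgeR's quasi-likelihood test, with 5 at an unadjusted p under 0.05, the same share as the 13.9% of all genes, and 0 in DESeq2, with 2, where 6 of the adjusted p-values were not given. Over all genes, 0.649% passed it in this comparison, 0.221% higher and 0.428% lower. The 5 genes were VARS1, RARS1, IARS2 and YARS2 on the positive side and CARS1 on the negative side. The median log2 fold change was 0.004 for cytosolic and 0.055 for mitochondrial genes, against 0.00 for all genes tested. In CPM, all 10 nM libraries lay above all Ctrl. libraries for FARSB, IARS2, RARS1, VARS1 and YARS2, or 5 of 36 genes where 10.0% of all genes did so, and below them for LARS1 alone, where 9.83% did. Without replicate 3 at 20 nM, which changes the shared estimate of the spread and takes the surrogate variables to 2, VARS1 and IARS2 passed the threshold at 10 nM (adjusted p = 0.00871 and 0.0144, edgeR), where 8.82% of all genes did.

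At 20 nM against Ctrl., 7 of 36 synthetase transcripts passed the threshold, 5 higher and 2 lower, where 13.9% of all genes did so, 7.8% higher and 6.08% lower. They were 3 of 18 cytosolic genes, with VARS1 and FARSB higher and CARS1 lower, and 4 of 16 mitochondrial genes, with IARS2, EARS2 and YARS2 higher and HARS2 lower. The dual genes GARS1 and KARS1 did not pass it. All 7 changes were small, within a log2 fold change of -0.296 to 0.291. The median log2 fold change was 0.035 over cytosolic and 0.138 over mitochondrial genes, against 0.00 over all genes tested, and 10 of 16 mitochondrial and 11 of 18 cytosolic values were above 0. DESeq2 called 4 of 36, against 12.2% of all genes, and edgeR gave 12 of 36 an unadjusted p under 0.05, where 28.0% of all genes had one.

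Leaving out 1 library moved these counts, and the share of all genes called moved with them. Without replicate 2 at 20 nM no synthetase gene passed the threshold at 20 nM, where 7.19% of all genes did. Without replicate 3 at 20 nM, in a fit that took 2 surrogate variables, 6 cytosolic, 8 mitochondrial and 1 dual gene did, where 29.2% of all genes did. Without Ctrl. replicate 3 the calls were 0 cytosolic and 2 mitochondrial genes (9.93% of all genes), and without Ctrl. replicate 1 there were 2 mitochondrial genes (10.1% of all genes). Without replicate 1 at 20 nM, also with 2 surrogate variables, the counts remained at 3 cytosolic and 4 mitochondrial genes, with GARS1 (adjusted p = 0.048, edgeR) as 1 dual gene besides, where 1946 of 14943 genes were called.

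Across the concentrations (0, 10 and 20 nM as a number, with changes per 20 nM), 9 of 36 synthetase transcripts passed the threshold, 7 higher and 2 lower, where 17.6% of all genes did so, 9.92% higher and 7.64% lower. An unadjusted p under 0.05 was given to 15 of 36, against 31.2% of all genes. FARSA, cytosolic, and MARS2, mitochondrial, joined the 7 genes already named, both higher, which made 4 of 18 cytosolic and 5 of 16 mitochondrial genes. The median log2 change was 0.041 for cytosolic, 0.164 for mitochondrial and -0.002 for all genes. Without Ctrl. replicate 3, and likewise without replicate 2 at 20 nM, 1 cytosolic and 2 mitochondrial genes passed it (12.2% and 9.16% of all genes), and without Ctrl. replicate 1 there were 3 mitochondrial genes (11.8% of all genes). The comparisons share their libraries and are not independent of each other.

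**Figure D2:**
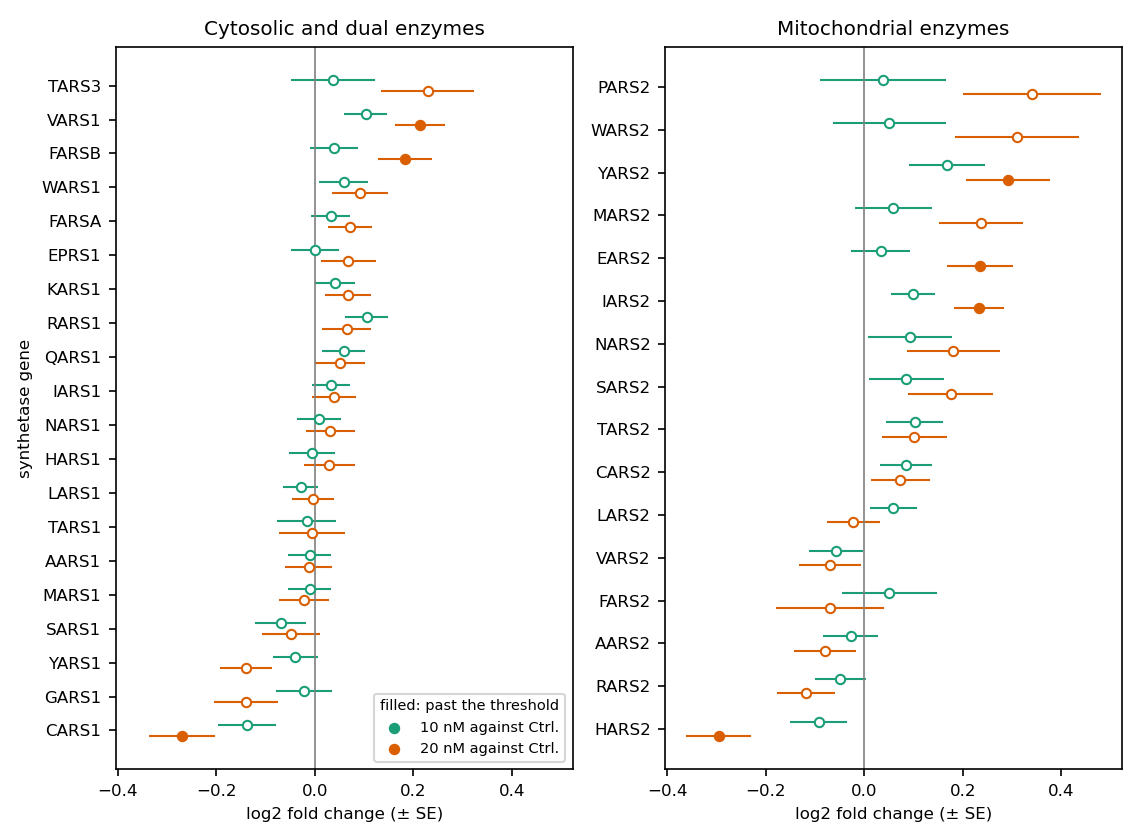
Log2 fold change (± SE) of each synthetase gene against Ctrl. at 10 nM (green) and 20 nM (orange), cytosolic and dual genes on the left and mitochondrial genes on the right, filled where the adjusted p is under 0.05. No 10 nM point is filled, and of the 20 nM points VARS1, FARSB, CARS1, YARS2, EARS2, IARS2 and HARS2 are.

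Among the cytosolic enzymes, VARS1 showed the lowest adjusted p across concentrations. VARS1 charges tRNA with valine. Its transcript stood at 249, 248 and 236 CPM in the Ctrl. libraries, at 269, 268 and 271 CPM at 10 nM, and at 278, 296 and 372 CPM at 20 nM. The 3 groups did not overlap, and replicate 3 at 20 nM was the highest by far. The log2 fold change was 0.10 ± 0.04 (SE) at 10 nM and 0.21 ± 0.05 at 20 nM (adjusted p = 0.0145, edgeR), and the change across concentrations had an adjusted p of 0.0018. Its mitochondrial counterpart VARS2, at 72.3, 72.2 and 66.3 CPM in Ctrl. and 65.2, 70.0 and 85.0 CPM at 20 nM, overlapped between groups and had a log2 fold change of -0.07 ± 0.06 (adjusted p = 0.52, edgeR).

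Both subunits of the cytosolic phenylalanine enzyme, which works as a tetramer of paired subunits, were called across concentrations. FARSB was at 41.8, 41.8 and 41.0 CPM in Ctrl., at 42.4, 43.9 and 44.1 CPM at 10 nM, and at 46.2, 49.4 and 56.9 CPM at 20 nM. The groups did not overlap. FARSB carries 1 of the 7-mer matches shown above and rose, with a log2 fold change of 0.18 ± 0.06 at 20 nM (adjusted p = 0.0434, edgeR).

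FARSA was at 189, 194 and 193 CPM in Ctrl., at 190, 212 and 215 CPM at 10 nM, and at 199, 218 and 318 CPM at 20 nM. The highest library, replicate 3 at 20 nM, was far above the other 8. The change across concentrations was 0.16 ± 0.04 per 20 nM (adjusted p = 0.0225, edgeR), while at 20 nM against Ctrl. the log2 fold change was 0.07 ± 0.04 (adjusted p = 0.34). With a replicate block and no surrogate variable, the change across concentrations was 0.33 (adjusted p = 0.0619), and without replicate 3 at 20 nM it was 0.09 (adjusted p = 0.177). The mitochondrial phenylalanine enzyme, FARS2, is a single chain, and its log2 fold change at 20 nM was -0.07 ± 0.11 (adjusted p = 0.741).

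CARS1, the cytosolic cysteine enzyme and a target of ATF4, was the cytosolic gene called lower. Its CPM was 70.3, 71.9 and 84.2 in Ctrl., 67.7, 68.7 and 77.5 at 10 nM, and 63.8, 65.6 and 89.6 at 20 nM. Values overlapped between groups, replicate 3 was the highest within each group, and replicates 1 and 2 at 20 nM lay below all Ctrl. libraries. The fitted log2 fold change at 20 nM was -0.27 ± 0.07 (adjusted p = 0.0191, edgeR). It rested on the surrogate variable: without it the log2 fold change was -0.05 (adjusted p = 0.842), and with the replicate block it was -0.06 (adjusted p = 0.603). Across concentrations the block likewise gave -0.06 (adjusted p = 0.588). Mitochondrial CARS2 had a log2 fold change of 0.07 ± 0.06 at 20 nM (adjusted p = 0.469).

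**Figure D3:**
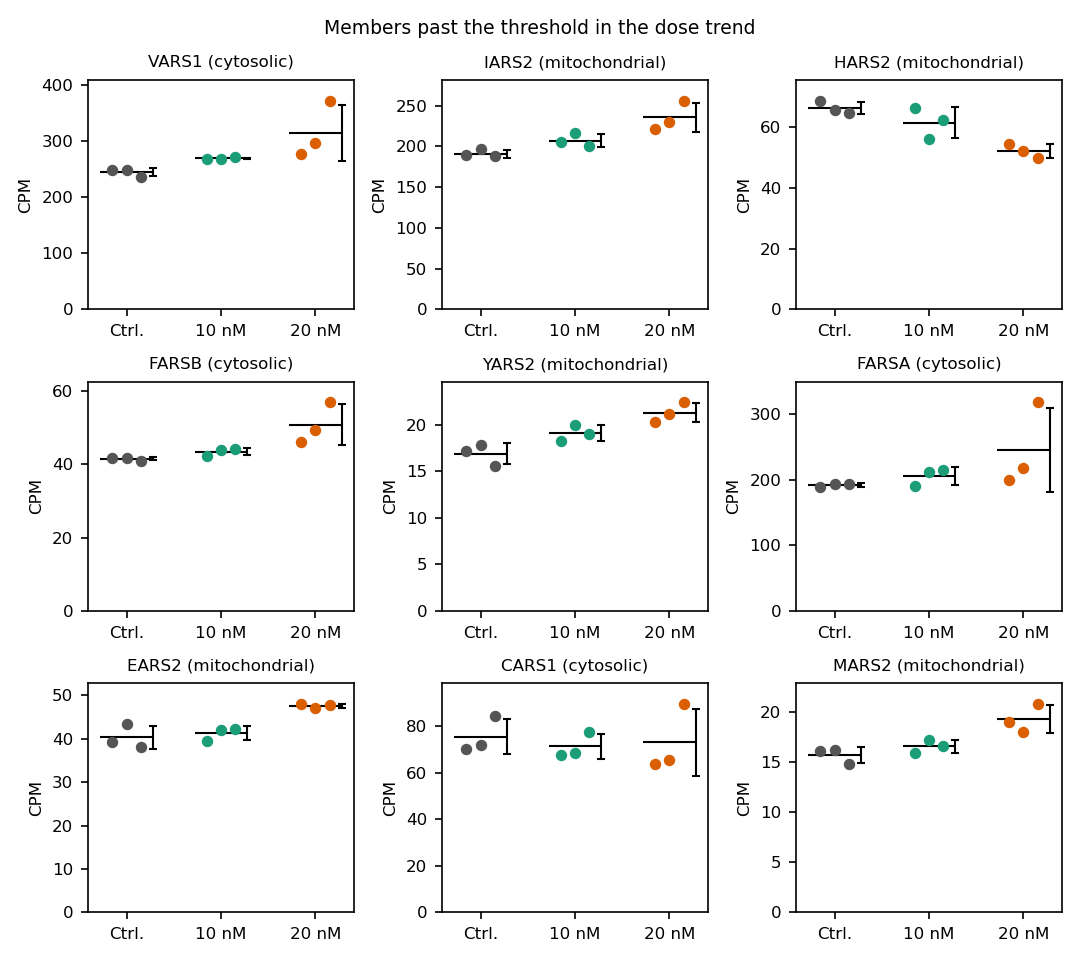
CPM of the 9 synthetase genes past the threshold across concentrations, with 1 point for each library (replicates 1 to 3 from left to right in each group), a line at the group mean and a bar of ± 1 SD, n = 3. HARS2 falls, CARS1 overlaps between all groups, and FARSA and VARS1 have their highest point, at 318 and 372 CPM, in replicate 3 at 20 nM.

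Among the mitochondrial enzymes, IARS2, for isoleucine, rose at 20 nM. It was at 189, 197 and 188 CPM in Ctrl., at 205, 216 and 200 CPM at 10 nM, and at 222, 230 and 256 CPM at 20 nM. All 3 groups were separate, in the order of the concentrations. The log2 fold change was 0.23 ± 0.05 at 20 nM (adjusted p = 0.00885, edgeR), and 0.26 ± 0.05 per 20 nM across concentrations (adjusted p = 0.00214). Cytosolic IARS1, a subunit of the multisynthetase complex, was at 215, 215 and 223 CPM in Ctrl. and at 224, 222 and 200 CPM at 20 nM, and had a log2 fold change of 0.04 ± 0.04 (adjusted p = 0.621).

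HARS2, for histidine, was the mitochondrial gene that fell. Its CPM was 68.6, 65.5 and 64.6 in Ctrl., 66.1, 56.0 and 62.2 at 10 nM, and 54.4, 52.1 and 49.9 at 20 nM. Every 20 nM library was below every Ctrl. and 10 nM library. The log2 fold change was -0.30 ± 0.07 at 20 nM (adjusted p = 0.0108, edgeR) and -0.31 ± 0.06 across concentrations (adjusted p = 0.00398). Without replicate 2 at 20 nM, the adjusted p at 20 nM was 0.0613 for HARS2 and 0.0564 for IARS2.

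HARS1, which charges the cytosolic histidine tRNA, is the neighbour of HARS2. The genes lie head to head, HARS1 at chr5:140673035-140691537 on the minus strand and HARS2 at chr5:140691430-140699305 on the plus strand, and their annotations share 108 bases. HARS1 was at 126, 123 and 127 CPM in Ctrl. and at 131, 126 and 158 CPM at 20 nM, with overlapping groups and a log2 fold change of 0.03 ± 0.05 (adjusted p = 0.773, edgeR). The longest UTR of each holds a single 6-mer, which that of HARS1 loses in its representative transcript and that of HARS2 keeps.

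YARS2, the mitochondrial tyrosine enzyme, was at 17.2, 17.8 and 15.6 CPM in Ctrl., at 18.3, 20.0 and 19.0 CPM at 10 nM, and at 20.3, 21.2 and 22.4 CPM at 20 nM. The 3 groups did not overlap. Its log2 fold change was 0.29 ± 0.09 at 20 nM (adjusted p = 0.0398, edgeR). Cytosolic YARS1 was at 109, 109 and 116 CPM in Ctrl. and at 99.3, 108 and 126 CPM at 20 nM, with a log2 fold change of -0.14 ± 0.05 (adjusted p = 0.0997).

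EARS2 and MARS2 charge mitochondrial tRNA with glutamate and methionine. EARS2 was at 39.3, 43.4 and 38.2 CPM in Ctrl., at 39.4, 42.1 and 42.3 CPM at 10 nM, and at 47.9, 47.1 and 47.8 CPM at 20 nM. MARS2 was at 16.1, 16.2 and 14.8 CPM in Ctrl., at 15.9, 17.2 and 16.6 CPM at 10 nM, and at 19.0, 18.0 and 20.8 CPM at 20 nM. For both genes the 20 nM libraries lay above all others, and Ctrl. and 10 nM overlapped.

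The log2 fold change of EARS2 at 20 nM was 0.24 ± 0.07 (adjusted p = 0.0345, edgeR). MARS2 changed by 0.26 ± 0.08 per 20 nM across concentrations (adjusted p = 0.0403), while its value at 20 nM against Ctrl., 0.24 ± 0.09, missed the threshold (adjusted p = 0.0903). Their cytosolic counterparts did not pass it: EPRS1, which joins the glutamate and proline activities in 1 protein, had a log2 fold change of 0.07 ± 0.06 (adjusted p = 0.469) and MARS1 one of -0.02 ± 0.05 (adjusted p = 0.831).

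The remaining 11 mitochondrial genes did not pass the threshold in any comparison. The highest of them at 20 nM were the 2 least abundant ones, PARS2 at 0.34 ± 0.14 (adjusted p = 0.13, edgeR) and WARS2 at 0.31 ± 0.13 (adjusted p = 0.124), and the lowest was RARS2 for arginine at -0.12 ± 0.06 (adjusted p = 0.209). WARS2 was above all Ctrl. libraries (7.19 to 7.85 CPM) in replicates 1 and 2 at 20 nM (9.16 CPM each) and below them in replicate 3 (6.48 CPM). In CPM, all 20 nM libraries lay above all Ctrl. libraries for 7 of 16 mitochondrial genes (EARS2, IARS2, MARS2, NARS2, PARS2, SARS2 and YARS2), for 3 of 18 cytosolic genes (FARSA, FARSB and VARS1) and for KARS1, where 15.1% of all genes did so. With the replicate block NARS2 (adjusted p = 0.049) and SARS2 (adjusted p = 0.048) also passed the threshold at 20 nM. The 20 nM libraries lay below all Ctrl. libraries for HARS2 and RARS2, where 13.7% of all genes did so.

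Averaged over genes within a library, the mitochondrial genes deviated from the Ctrl. mean by 0.00 ± 0.04 in log2 CPM in Ctrl., by 0.05 ± 0.03 at 10 nM and by 0.13 ± 0.05 at 20 nM (SD, n = 3 libraries). The cytosolic genes deviated by 0.00 ± 0.03, by 0.03 ± 0.04 and by 0.10 ± 0.08. The difference within a library, mitochondrial less cytosolic, was 0.02, 0.04 and -0.07 in Ctrl., 0.03, 0.04 and 0.00 at 10 nM, and 0.06, 0.05 and -0.01 at 20 nM. These ranges overlapped, and in replicate 3 of every group the difference was the smallest of its group. Within same-numbered libraries, this difference less that of Ctrl. was 0.037, 0.003 and 0.061 at 20 nM, above 0 in 3 of 3, and 0.009, -0.003 and 0.07 at 10 nM. It was not tested.

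**Figure D4:**
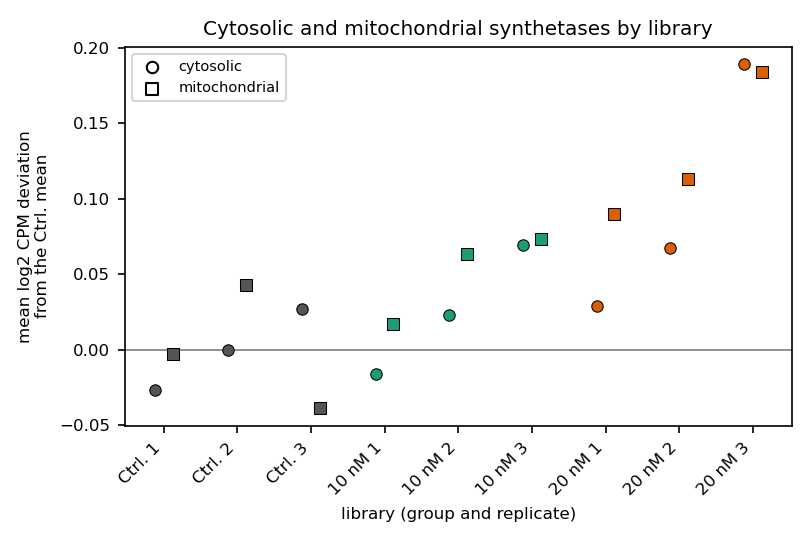
Mean deviation of log2 CPM from the Ctrl. mean over the 18 cytosolic genes (circles) and the 16 mitochondrial genes (squares) in each library, coloured by group. Both means are above 0 in all 3 libraries at 20 nM and highest in replicate 3 at 20 nM, where circle and square lie side by side.

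The same amino acid can be followed in both compartments. The list gave 18 pairs of a cytosolic and a mitochondrial gene over 16 amino acids, with FARS2, TARS2 and EPRS1 each in 2 pairs. At 20 nM the mitochondrial log2 fold change was above the cytosolic one in 10 pairs and below it in 8, the median difference was 0.13, and the 2 genes of a pair had the same sign in 8 of 18 pairs. The differences ran from -0.33 for histidine, where HARS2 was the lower gene, to 0.43 for tyrosine, where YARS2 was the higher one. In no pair were both genes past the threshold. Differences within pairs were not tested. QARS1 has no mitochondrial partner, since mitochondria make glutaminyl-tRNA from a product of EARS2 by amidation. QARS1 itself had a log2 fold change of 0.05 ± 0.05 at 20 nM (adjusted p = 0.566, edgeR).

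**Figure D5:**
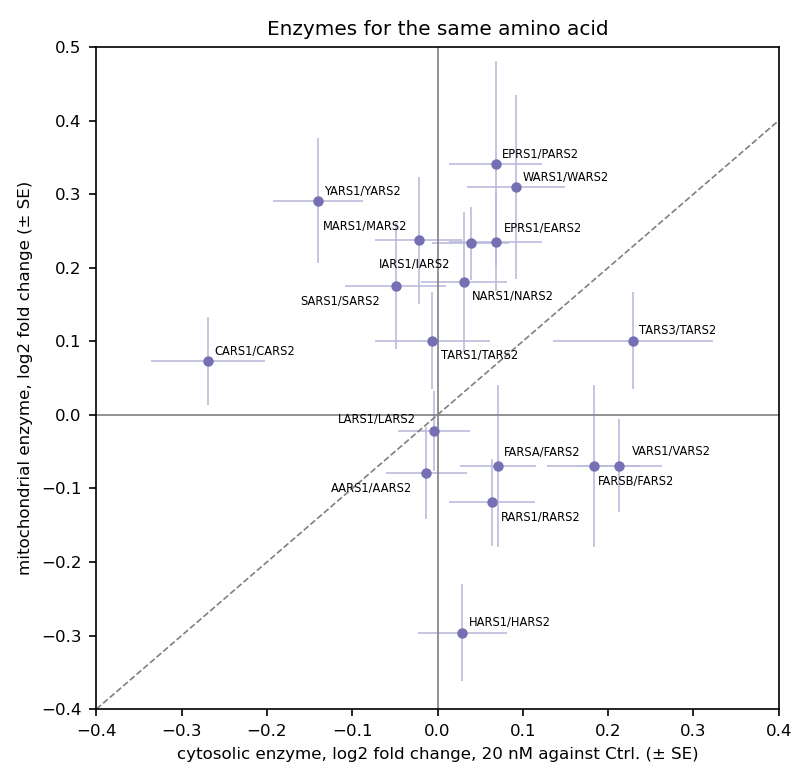
Log2 fold change at 20 nM against Ctrl. (± SE) of the cytosolic gene (horizontal axis) and the mitochondrial gene (vertical axis) of each of the 18 pairs, with a dashed line where both would be equal. The pairs spread over all quadrants around 0, with YARS1/YARS2 and CARS1/CARS2 on the upper left and HARS1/HARS2 at the bottom.

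The 7 synthetases of the multisynthetase complex in the list (EPRS1, IARS1, KARS1, LARS1, MARS1, QARS1 and RARS1) had log2 fold changes near 0. None passed the threshold at 20 nM and none had an unadjusted p under 0.05, where 13.9% and 28.0% of all genes did, so that a count of 0 among 7 is close to that background. Their log2 fold changes lay between -0.02 (MARS1) and 0.07 (EPRS1) with a median of 0.05. Across concentrations KARS1 had an unadjusted p under 0.05. Of the 13 cytosolic or dual genes outside the complex, 2 were higher (FARSB and VARS1) and 1 lower (CARS1) at 20 nM. The complex has 3 scaffold proteins without synthetase activity. AIMP2, 1 of them, was at 44.1, 48.6 and 48.3 CPM in Ctrl. and at 54.4, 60.8 and 63.7 CPM at 20 nM, with a log2 fold change of 0.26 ± 0.08 (adjusted p = 0.0393, edgeR), while AIMP1 (-0.05 ± 0.05, adjusted p = 0.528) and EEF1E1 (0.11 ± 0.10, adjusted p = 0.517) did not pass the threshold.

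Over the 12 cytosolic or dual genes listed as ATF4 targets, the median log2 fold change was -0.01 at 20 nM. CARS1 alone passed the threshold there (8.33%, against 13.9% of all genes). All 8 cytosolic or dual genes outside that group had values above 0, with a median of 0.07, and FARSB and VARS1 passed the threshold at 20 nM and FARSA also across concentrations. By structural class of the catalytic domain, 5 of 18 class I genes and 2 of 17 class II genes passed the threshold at 20 nM, against 13.9% of all genes, with EPRS1 counted in neither because it holds 1 domain of each. The difference between the classes was not tested.

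The ATF4 targets were also described by a promoter element. The element bound by ATF4 with C/EBP factors was searched for as TGATGNAA on both strands, from 250 bases before to 50 bases after each RefSeq start, in the 30 synthetase genes with a promoter entry. It was found in 8 of 30 (26.7%), against 2.77% of 11209 genes of the table with an entry and 4.46% of 27305 genes in all. The ATF4 group had it in 7 of 10 genes (70.0%), namely AARS1, CARS1, GARS1, IARS1, MARS1, NARS1 and TARS1, and the other synthetase genes in 1 of 20 (5.0%), YARS2. Those of CARS1 and YARS2, which passed the threshold in opposite directions, and that of IARS1, which did not pass it, are shown on the strand of the gene with the element in capitals (for CARS1 and IARS1 it reads on the opposite strand).
CARS1: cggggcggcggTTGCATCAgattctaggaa
IARS1: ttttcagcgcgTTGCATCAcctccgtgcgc
YARS2: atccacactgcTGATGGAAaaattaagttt

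They lie at chr11:3057407-3057436, chr9:92293692-92293721 and chr12:32756076-32756105, all on the minus strand of GRCh38.p14. The 8 genes with the element had a median log2 fold change of -0.01 at 20 nM, between -0.27 for CARS1 and 0.29 for YARS2. A match does not show that ATF4 binds there in these cells, which was not measured.

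Of 11 sensors and factors of the ATF4 pathway, 4 passed the threshold across concentrations, where 17.6% of all genes did. ATF4 itself was lower (-0.22 ± 0.06 per 20 nM, adjusted p = 0.0265, edgeR), as were CEBPG, its binding partner (-0.18 ± 0.05, adjusted p = 0.0383), and PPP1R15A, which restarts translation by dephosphorylating eIF2 (-0.31 ± 0.10, adjusted p = 0.0403). EIF2AK3, the kinase of endoplasmic reticulum stress, was higher (0.24 ± 0.05, adjusted p = 0.00636). In CPM, ATF4 was at 145, 145 and 166 in Ctrl. and at 129, 128 and 169 at 20 nM. Across concentrations the replicate block ended the calls of all 4 (adjusted p = 0.229 for ATF4, 0.0611 for CEBPG, 0.663 for PPP1R15A and 0.0982 for EIF2AK3). ATF4 was lower in replicates 1 and 2 and not in replicate 3, and the fitted fall at 20 nM, -0.29, became -0.10 without the surrogate variable (adjusted p = 0.652) and -0.11 with the replicate block (adjusted p = 0.259).

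Of 16 genes of amino acid supply under ATF4, 4 passed the threshold across concentrations (25.0%, against 17.6% of all genes). ASNS, which makes asparagine, was at 81.8, 81.0 and 90.5 CPM in Ctrl. and at 70.4, 65.7 and 69.8 CPM at 20 nM, without overlap, and changed by -0.33 ± 0.09 per 20 nM (adjusted p = 0.0146, edgeR). SLC7A5, a transporter of large neutral amino acids (0.31 ± 0.07, adjusted p = 0.00581), SHMT2 of mitochondrial serine breakdown (0.19 ± 0.05, adjusted p = 0.0215) and PSAT1 of serine synthesis (0.16 ± 0.05, adjusted p = 0.0413) were higher. At 20 nM against Ctrl., 1 of the 16 was called higher (PSAT1) and 2 lower (18.8% in all, against 13.9% of all genes). The 2 were ASNS and PHGDH, also of serine synthesis (-0.17 ± 0.05, adjusted p = 0.0294). SLC7A5 (adjusted p = 0.0785) and SHMT2 (adjusted p = 0.111) missed the threshold at 20 nM, where SLC7A5 was at 109, 114 and 165 CPM, highest in replicate 3. With the replicate block PSAT1 was no longer called across concentrations (adjusted p = 0.17).

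The steps that follow tRNA charging were covered by short lists. Of 8 genes for export and delivery of tRNA, EEF1A2, the elongation factor of neurons and muscle (0.21 ± 0.05 per 20 nM, adjusted p = 0.00845, edgeR), and TUFM, the mitochondrial elongation factor (0.15 ± 0.04, adjusted p = 0.031), were higher across concentrations and none was lower, which is 25.0% against 17.6% of all genes. At 20 nM against Ctrl. EEF1A2 (0.101 ± 0.044, adjusted p = 0.157) and TUFM (0.096 ± 0.045, adjusted p = 0.188) missed the threshold. Both were highest in replicate 3 there, EEF1A2 at 490, 526 and 850 CPM and TUFM at 315, 342 and 428 CPM. Of 7 genes for proofreading, amidation and formylation, 2 passed it across concentrations (28.6%, against 17.6% of all genes). GATC, a subunit of the mitochondrial amidation enzyme, was higher (0.16 ± 0.05, adjusted p = 0.044). DTD1, which removes D-amino acids from tRNA, was lower (-0.17 ± 0.05, adjusted p = 0.0395), and missed the threshold at 20 nM (adjusted p = 0.0904). The replicate block ended the calls of TUFM (adjusted p = 0.051) and GATC (adjusted p = 0.184), and with 2 surrogate variables GATC (adjusted p = 0.0586) and, of the factors above, PPP1R15A (adjusted p = 0.064) missed the threshold.

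Read against the seed matches, none of the 4 genes with a 7-mer was called lower in any comparison, where 6.08% of all genes were lower at 20 nM and 7.64% across concentrations, so that a count of 0 among 4 says nothing of such genes. FARSB was called higher, and LARS2 (-0.02 ± 0.05), NARS2 (0.18 ± 0.10) and PARS2 (0.34 ± 0.14) did not pass the threshold at 20 nM, which left a median log2 fold change of 0.18 over the 4. The 6 genes with a 6-mer alone had a median of -0.04, with HARS2 lower and EARS2 higher. The 26 genes without a match had a median of 0.07, with 3 higher and 1 lower.

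Of the 9 genes called across concentrations, VARS1, IARS2 and HARS2 passed the threshold in all 17 alternative fits run, FARSB and YARS2 in 15, EARS2 and CARS1 in 12, FARSA in 10 and MARS2 in 8. At 20 nM against Ctrl., HARS2 and IARS2 passed it in 16 of 17, VARS1 in 15, CARS1 in 12, YARS2 in 11, EARS2 in 10 and FARSB in 7. Between 20 nM and 10 nM no synthetase gene passed the threshold in edgeR or DESeq2, where 2.79% of all genes did in edgeR, 1.91% higher and 0.883% lower. An unadjusted p under 0.05 was given to 6 of 36 by edgeR, against 14.9% of all genes, and to 4 by DESeq2. In CPM, 7 of 36 genes lay higher in all 20 nM than in all 10 nM libraries (FARSB, VARS1, EARS2, IARS2, MARS2, PARS2 and YARS2), where 7.9% of all genes did, and HARS2 alone lay lower, where 6.3% did. Without replicate 3 at 20 nM 3 mitochondrial genes were called between these groups, where 10.0% of all genes were, and without replicate 2 at 10 nM 1 was, where 1.72% of all genes were. Among the 36 genes, 11 overlap another gene of the table on the opposite strand (HARS1 with HARS2, and MARS1 with the stress gene DDIT3 over 982 bases, for example), and whether strand was used in the counting is not stated, so reads in such stretches cannot be assigned with certainty.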

How the data were processed

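Each library's group and replicate number come from its title. The authors prepared polyadenylated libraries, mapped paired-end reads with Salmon onto GRCh38.p13 (Ensembl annotation 107), summed them by gene symbol and filtered low genes with edgeR's filterByExpr; tool versions and strand use were not given in the sources used here. Estimated counts per gene, 88.8% of them not whole, are what the deposited table gives. The authors' table of corrected log2 values and their columns of fold changes and p-values were not used.

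Counts were rounded, scaled by TMM and fitted over all 9 libraries and 14943 genes with edgeR 4.0.16 (quasi-likelihood test, R 4.3.3), by group and by concentration, with 1 surrogate variable in each fit (sva 3.50.0, number from num.sv with seed 1 and held between 1 and 3). Over 10 seeds num.sv gave 1 in all 10 for the fit by group, and 1 in 8 and 2 in 2 for the fit by concentration. P-values were adjusted by Benjamini-Hochberg over all genes. Standard errors are the log2 fold change over the square root of F. The script was tested on simulated data. DESeq2 1.42.0, other scaling, a minimum of 10 CPM, no surrogate variable, a replicate block and leaving out each library were alternatives.

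The deviations of same-numbered libraries correlated at 0.142 to 0.185 between Ctrl. and 10 nM, at 0.107 to 0.116 between Ctrl. and 20 nM, and at 0.0288 to 0.176 between 10 nM and 20 nM, so the numbers pair the libraries in both comparisons with Ctrl. Libraries with different numbers correlated at -0.134 to -0.0423 between Ctrl. and 10 nM and at -0.0841 to -0.0306 between Ctrl. and 20 nM. Between 10 nM and 20 nM they correlated at -0.17 to 0.0321. The deviations were taken from each group's own mean and cancel within a group. Negative values for different numbers therefore follow from positive ones for the same number, and are no separate evidence of pairing. The pairing comes from the titles and this check. The main fits held no replicate block, so their p-values do not use the pairing, and the block was an alternative fit.

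Values in each library were given for members past the threshold across concentrations (at most 12, by adjusted p), and list genes were named where past it (at most 6 a list). PHGDH was named besides, for its call at 20 nM. The members, lists and tests were chosen with earlier results of these data known. Promoter and microRNA sequences come from RefSeq tables (GRCh38.p14), and 30 of 36 members had a promoter entry. Gene coordinates and UTRs come from GENCODE release 44, which matched 14105 genes by identifier and 768 by symbol and left 70 unmatched.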

Additional observations from a re-analysis of the deposited data

How the results depend on the processing

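Over all alternatives, members called at 20 nM or across concentrations kept their sign in all 119 and 153 values computed, and lost the threshold in 32 and 30 of them. Members not called changed sign in 40 of 490 values at 20 nM and in 39 of 456 across concentrations. None passed the threshold in the opposite direction.

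Without surrogate variables, 1 cytosolic member passed the threshold at 20 nM, where 6.38% of all genes did. The mitochondrial members past it there included HARS2 and IARS2. Across concentrations 2 cytosolic and 3 mitochondrial members passed it, where 8.27% of all genes did. DESeq2 called 4 members at 20 nM (12.2% of all genes), 2 of them mitochondrial. With 2 surrogate variables in both fits, chosen after seeing the data, 2 mitochondrial members were called at 20 nM (13.1% of all genes). CARS1 was among the cytosolic members called there. With the replicate block in place of surrogate variables, 2 cytosolic and 6 mitochondrial members passed the threshold at 20 nM (13.6% of all genes). Across concentrations 3 and 7 did (16.4% of all genes). The block ended the calls of CARS1 and FARSA and of no other member called, and made calls of NARS2 and SARS2, both higher, and across concentrations of WARS1 (adjusted p = 0.0445). RLE scaling, scaling by library totals and a minimum of 10 CPM left every count of members within 1.5 times. The shares of all genes called at 20 nM were 13.9%, 13.6% and 22.8% in these fits, and 17.6%, 17.4% and 27.0% across concentrations. The minimum of 10 CPM kept 10509 genes and left out the mitochondrial members FARS2, PARS2 and WARS2.

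Leaving out 1 library gave 0 to 1 cytosolic and 0 to 1 mitochondrial members at 10 nM (0.228 to 8.82% of all genes). At 20 nM it gave 0 to 6 cytosolic, 0 to 8 mitochondrial and 0 to 1 dual members (7.19 to 29.2% of all genes). Between 20 nM and 10 nM it gave 0 to 3 mitochondrial members (1.17 to 10.0% of all genes). Across concentrations it gave 1 to 5 cytosolic, 2 to 6 mitochondrial and 0 to 1 dual members (9.16 to 22.2% of all genes). With the longest transcript, the cytosolic median level was 45.8 CPM per kb. The cause of these changes was not tested. The spread at 20 nM was wide (median SD of log2 CPM 0.163 for cytosolic, 0.0995 for mitochondrial and 0.175 for all genes). These SDs are not corrected by the surrogate variable. In the fit, standard errors of members at 20 nM against Ctrl. ran from 0.042 to 0.14, with a median of 0.059. With 3 libraries a group, smaller changes may have been missed.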

Other observations

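Selenocysteine is made on its tRNA and not joined to it by a synthetase. Of 5 genes of this route, 1 passed the threshold across concentrations (20.0%, close to the 17.6% of all genes). It was EEFSEC, the elongation factor for selenocysteine, which was higher (log2 change 0.21 ± 0.06 per 20 nM, adjusted p = 0.0254, edgeR's quasi-likelihood test). At 20 nM against Ctrl. EEFSEC missed it (0.16 ± 0.06, adjusted p = 0.121), at 38.5, 41.2 and 50.8 CPM, highest in replicate 3. SEPSECS, which makes the final step (-0.21 ± 0.08, adjusted p = 0.0806), and PSTK, which phosphorylates seryl-tRNA (-0.21 ± 0.17, adjusted p = 0.425), did not pass the threshold across concentrations.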
